A study of Homo sapiens with 6 samples.

Results

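The genes that flank EGFR on band 7p11 of human chromosome 7 were followed in 6 RNA libraries of lung adenocarcinoma cells. All were lowest in the GR line of each parent, and the share of all genes with this order was not counted. Below the parent were also 5638 of 12595 genes tested in HCC827GR and 6594 of 13020 in PC-9GR. Below the ER line of the same parent were also 35.9% of genes in HCC827GR and 51.5% in PC-9GR. The ER lines were deposited in another table than the rest, and the library labelled PC-9GR stood apart from its parent. At least 2-fold below the parent were 10 of 10 in HCC827GR and 8 of 10 in PC-9GR (8.77% and 20.9% of all genes). The set was chosen by position: 10 genes within 1 Mb of EGFR (SEC61G, LANCL2, VOPP1, ZNF713, NIPSNAP2, MRPS17, PSPH, CCT6A, SUMF2 and CHCHD2), of 16000 genes counted in all 6 libraries and 757 of them placed on chromosome 7. The resistant lines PC-9GR and PC-9ER were set against their parent PC-9, and the resistant lines HCC827GR and HCC827ER against their parent HCC827. Both parents are established lung adenocarcinoma lines that carry an activating deletion in EGFR and respond to EGFR tyrosine kinase inhibitors, and the series describes the derived lines as having acquired resistance to these inhibitors. The labels do not spell out GR or ER, name no drug or dose, and write one line as HCC82GR, which is taken here as HCC827GR. All lines grew in RPMI-1640 medium with serum, and total RNA was depleted of ribosomal RNA. Each line had 1 library, so no comparison of single lines has a replicate check.

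EGFR is a receptor tyrosine kinase whose gene is often amplified in lung adenocarcinoma and glioblastoma. Amplified segments of 7p11 usually carry neighbours of EGFR along with it, and these neighbours are then transcribed from the extra copies although they have no part in EGFR signalling. HCC827 is known as a line with such an amplification. The level of the neighbours beside that of EGFR can therefore be read as an indirect sign of copy number. DNA copy number was not measured here, and in bulk RNA fewer cells with a high level and less RNA per cell cannot be told apart.

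Levels are in CPM, the count per 1000000 counts of the library over the 16000 shared genes, and totals ranged from 14529347 (HCC827) to 17832888 (PC-9GR) counts. A count of 0 would allow up to 3 counts, 0.168 to 0.206 CPM, and all 10 neighbours were above this in every library. The GR and parental lines were deposited in 1 table and the ER lines in another, so a difference between the tables cannot be told apart from one between ER lines and the rest. The library labelled PC-9GR stood apart from its parent, with a Spearman correlation across 13780 genes of 0.774, against 0.96 for PC-9ER, 0.943 for HCC827GR and 0.889 for HCC827ER with their parents and 0.831 between HCC827 and PC-9. Fits and counts over both parents are therefore also given without it. Genes of ribosomal proteins took 16.1% of the counts of HCC827ER and 5.85% to 8.50% of those elsewhere, which moves with the CPM of all other genes. In HCC827ER the median log2 ratio to HCC827 over all genes was -0.35 in CPM and 0.00078 with TMM scaling (trimmed mean of M values, which is less sensitive to a few abundant genes). The 5 epithelial markers (EPCAM, KRT8, KRT18, KRT19 and CDH1) summed to 6157 CPM in PC-9GR and 4610 CPM in PC-9ER, against 6997 CPM in PC-9, and to 3078 CPM in HCC827GR and 6677 CPM in HCC827ER, against 12718 CPM in HCC827. All 5 were lower in HCC827GR than in HCC827, as the neighbours were. All 5 were also lower in HCC827ER than in HCC827, where 3 of the 10 neighbours were higher. In PC-9GR, EPCAM (1.91 CPM, against 384 CPM in PC-9), KRT19 (13.1 against 1939 CPM) and CDH1 (56.1 against 322 CPM) were lower, and KRT8 (3635 against 2569 CPM) and KRT18 (2451 against 1784 CPM) were higher. The 3 lung lineage markers (NKX2-1, NAPSA and SFTPB) summed to 0.561 CPM in PC-9GR and 1.51 CPM in PC-9ER, against 3.85 CPM in PC-9, and to 5.81 CPM in HCC827GR and 12.5 CPM in HCC827ER, against 43.8 CPM in HCC827. NKX2-1 was at 0 in PC-9GR and HCC827ER, while NAPSA was at 0.505 and 12.5 CPM there. Of other cell types, 3 listed leukocyte markers summed to 22.04 to 127 CPM, nearly all from CD68, and CD3E was at 0 outside HCC827 (0.0688 CPM). The 3 fibroblast markers summed to 2.49 to 41.1 CPM, nearly all from COL1A1, with DCN at no more than 0.0688 CPM. The 3 endothelial markers summed to 0.112 CPM in PC-9GR and 55.7 CPM in PC-9ER, against 220.04 CPM in PC-9, and to 0.174 to 0.826 CPM in the HCC827 family. The part of these markers in the results was not tested.

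EGFR itself (NCBI gene 1956, chromosome 7, 55019021 to 55211628, plus strand, GRCh38) was lower in every resistant line than in its parent. It was at 348 CPM in PC-9GR and 481 CPM in PC-9ER, against 1221 CPM in PC-9. It was at 632 CPM in HCC827GR and 1070.2 CPM in HCC827ER, against 5450.3 CPM in HCC827. Both PC-9 derivatives and both HCC827 derivatives thus lay below their parent, by 3.51-fold, 2.54-fold, 8.62-fold and 5.09-fold in the order given, with 95% intervals for counting error of 3.41 to 3.61, 2.47 to 2.60, 8.44 to 8.81 and 5.01 to 5.18.

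Gene by gene, the levels of the neighbours were as follows. SEC61G (23480; 54752250 to 54759974, minus strand), the gamma subunit of the SEC61 channel that passes new proteins into the endoplasmic reticulum, lies 259 kb on the telomere side of EGFR and is the only neighbour on that side. It was at 69.5 CPM in PC-9GR and 139 CPM in PC-9ER, against 146 CPM in PC-9, and at 124 CPM in HCC827GR and 1584 CPM in HCC827ER, against 1936 CPM in HCC827. HCC827 and HCC827ER thus held at least 10 times the level of any other library. SUMF2 (25870; 56064002 to 56080670, plus strand), an endoplasmic reticulum protein related to the enzyme that activates sulfatases, was at 119 CPM in PC-9GR and 232 CPM in PC-9ER, against 353 CPM in PC-9, and at 114 CPM in HCC827GR and 582 CPM in HCC827ER, against 419.7 CPM in HCC827. HCC827ER was the highest library for SUMF2, above its own parent.

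Among the mitochondrial proteins, MRPS17 (51373; 55951819 to 55956501, plus strand), of the small subunit of the mitochondrial ribosome, was at 26.3 CPM in PC-9GR and 60.8 CPM in PC-9ER, against 71.7 CPM in PC-9, and at 34.6 CPM in HCC827GR and 143 CPM in HCC827ER, against 192 CPM in HCC827. NIPSNAP2 (2631; 55951793 to 56000181, plus strand), a mitochondrial protein that helps to mark damaged mitochondria for removal, was at 76.2 CPM in PC-9GR and 137 CPM in PC-9ER, against 118 CPM in PC-9, and at 27.8 CPM in HCC827GR and 104 CPM in HCC827ER, against 94.2 CPM in HCC827. CHCHD2 (51142; 56101569 to 56106576, minus strand), a protein of the intermembrane space that supports respiration, was at 339.6 CPM in PC-9GR and 1024 CPM in PC-9ER, against 1021 CPM in PC-9, and at 310.3 CPM in HCC827GR and 1592 CPM in HCC827ER, against 1513 CPM in HCC827. In all 3 genes the GR line was the lowest of its family. MRPS17 lies inside the annotated span of NIPSNAP2 on the same strand, so reads of these 2 genes could have been split between them.

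Of the cytosolic proteins, CCT6A (908; 56051630 to 56063989, plus strand), a subunit of the TRiC chaperonin that folds actin and tubulin, was at 453.5 CPM in PC-9GR and 1119 CPM in PC-9ER, against 992 CPM in PC-9, and at 470.2 CPM in HCC827GR and 1035 CPM in HCC827ER, against 1758 CPM in HCC827. PSPH (5723; 56011051 to 56051604, minus strand), the phosphatase of the last step of serine synthesis, was at 70.3 CPM in PC-9GR and 91.4 CPM in PC-9ER, against 91.7 CPM in PC-9, and at 34.6 CPM in HCC827GR and 90.7 CPM in HCC827ER, against 148 CPM in HCC827. LANCL2 (55915; 55365448 to 55433742, plus strand), a relative of bacterial lanthionine synthetases, was at 16.7 CPM in PC-9GR and 71.3 CPM in PC-9ER, against 77.5 CPM in PC-9, and at 79.0 CPM in HCC827GR and 275 CPM in HCC827ER, against 545 CPM in HCC827. LANCL2 in HCC827GR was back at the level of PC-9.

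VOPP1 (81552; 55436056 to 55572988, minus strand), a vesicle protein found in excess in several cancers, was at 144 CPM in PC-9GR and 287 CPM in PC-9ER, against 419 CPM in PC-9, and at 233 CPM in HCC827GR and 1349 CPM in HCC827ER, against 2249 CPM in HCC827. ZNF713 (349075; 55887475 to 55942530, plus strand), a zinc finger protein, was the scarcest by counts, at 1.29 CPM in PC-9GR and 4.35 CPM in PC-9ER, against 7.81 CPM in PC-9, and at 1.20 CPM in HCC827GR and 3.07 CPM in HCC827ER, against 7.57 CPM in HCC827. Its 18 to 132 counts per library make it the least precise of the set. PSPH, CCT6A, CHCHD2 and SEC61G have pseudogenes elsewhere in the genome, whose reads the counting may or may not have kept apart.

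**Figure D1:**
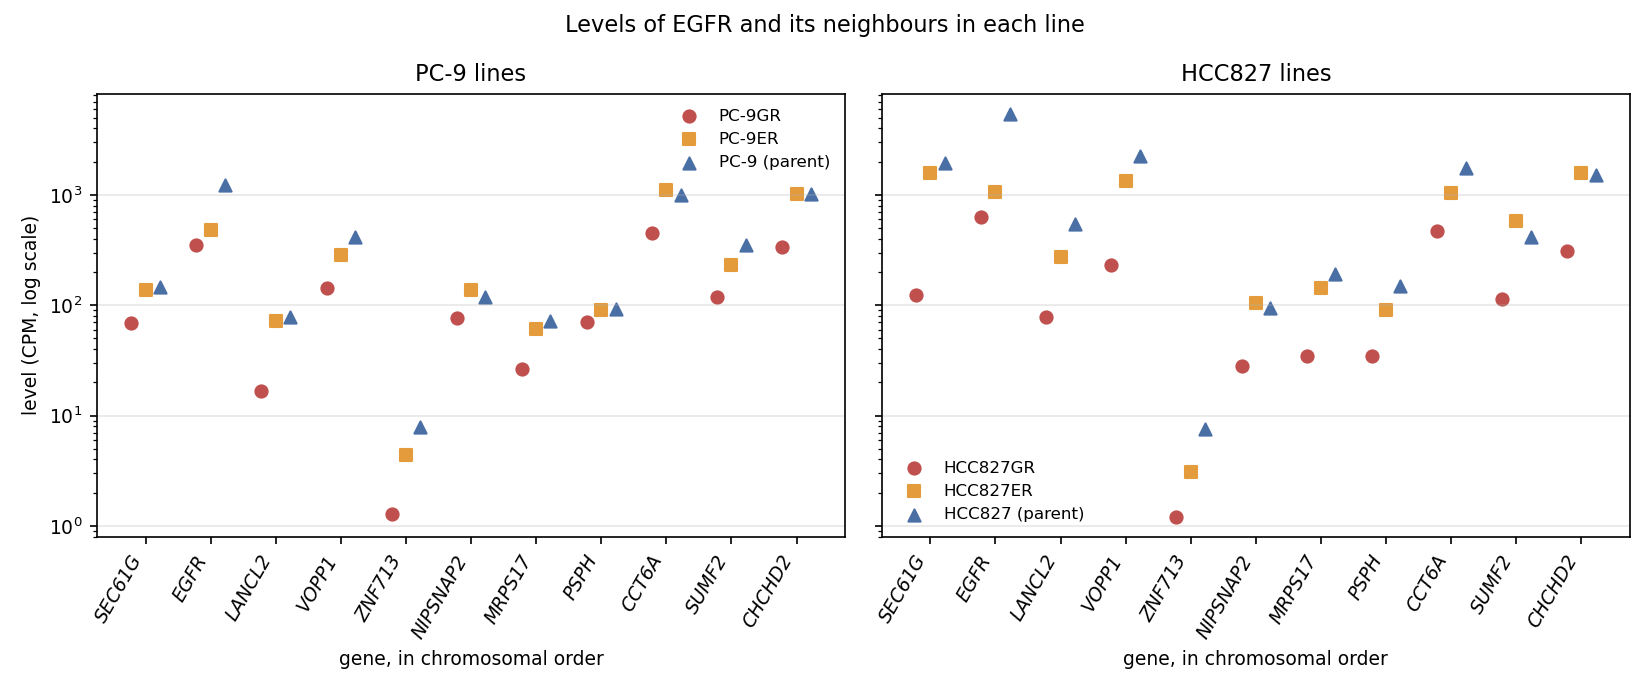
Levels in CPM (log scale) of EGFR and its 10 neighbours in chromosomal order, with GR line, ER line and parent drawn side by side for the PC-9 lines (left panel) and the HCC827 lines (right panel), 1 library per point. In HCC827GR every gene lies below HCC827, whereas in HCC827ER SEC61G (1584 against 1936 CPM) lies nearer to HCC827 than EGFR does (1070.2 against 5450.3 CPM).

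In HCC827GR all 10 neighbours were at least 2-fold lower than in HCC827, together with EGFR. Over all genes with at least 1 CPM in either library, 8.77% were at least 2-fold lower in this pair. The median log2 ratio of the neighbours was -2.38 (range -3.96 to -1.75), beside 0.06 over all 12595 genes tested. SEC61G was 15.6-fold lower (95% interval for counting error 14.9 to 16.3) and VOPP1 9.64-fold lower (9.31 to 9.98), both by more than EGFR. LANCL2 was 6.90-fold lower (6.49 to 7.34), MRPS17 5.56-fold lower (5.06 to 6.11), CHCHD2 4.88-fold lower (4.72 to 5.03) and NIPSNAP2 3.38-fold lower (3.03 to 3.78), the smallest difference of the 10. With 1 library on each side these intervals say nothing of the spread between cultures.

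The ratios in HCC827GR were lowest next to EGFR. SEC61G, LANCL2 and VOPP1, all within 259 kb of EGFR, had log2 ratios of -3.96 to -2.78 (median -3.27). The other 7, which lie 676 to 890 kb away, had log2 ratios of -2.53 to -1.75 (median -2.09), and the ranges of these groups did not overlap. The split follows the widest gap between neighbours and was made after the values were seen, so it carries no test. The same split appeared between the parents. HCC827 exceeded PC-9 for SEC61G by 13.2-fold (12.7 to 13.8), for LANCL2 by 7.04-fold (6.64 to 7.47), for VOPP1 by 5.37-fold (5.23 to 5.51) and for EGFR by 4.46-fold (4.40 to 4.53). Of the farther 7, MRPS17 was 2.68-fold higher in HCC827 (2.50 to 2.87) and the rest had ratios of 0.795 (NIPSNAP2) to 1.77 (CCT6A). PHKG1, which overlaps SUMF2 and is not a member of the set, did not follow this split. Its log2 ratio was 2.26 (3.03 against 0.533 CPM), on 9 counts in PC-9. LOC101060341, also in the window and not a member, was at 0.48. In all, 4 of 10 neighbours were at least 2-fold higher in HCC827 than in PC-9, and 19.3% of all genes were.

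The neighbours that had been highest in HCC827 relative to PC-9 were thus those with the lowest ratios in HCC827GR. Both comparisons use the same HCC827 library, so this resemblance is partly built in. HCC827GR can also be set against PC-9 itself, which that library does not touch. SEC61G (124 against 146 CPM) and VOPP1 (233 against 419 CPM) lay below PC-9 there, and LANCL2 (79.0 against 77.5 CPM) was level with it. All of the farther neighbours also lay below PC-9, CHCHD2 (310.3 against 1021 CPM) among them. This comparison thus does not set the nearest genes apart.

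In HCC827ER the picture differed: EGFR was 5.09-fold lower than in HCC827. Of its 10 neighbours, 7 had a ratio below 1, all nearer to 1 than that of EGFR. Below 1 were also 7913 of the 12597 genes tested. SEC61G had a ratio of 0.819 (0.805 to 0.832), VOPP1 of 0.600 (0.590 to 0.610), LANCL2 of 0.504 (0.486 to 0.523), PSPH of 0.613, CCT6A of 0.589, ZNF713 of 0.405 (0.286 to 0.567), MRPS17 of 0.742, CHCHD2 of 1.05, NIPSNAP2 of 1.10 and SUMF2 of 1.39 (1.34 to 1.43). Only ZNF713 was at least 2-fold lower, 1 of 10, where 28.3% of all genes were. The neighbours had a median log2 ratio of -0.57, beside -0.35 over all genes, and with TMM scaling of -0.22. With TMM scaling the log2 ratio of SEC61G was 0.06, of VOPP1 -0.39, of LANCL2 -0.64, of SUMF2 0.81 and of EGFR -2.00. The sign of SEC61G depended on the scaling, at -0.29 in CPM and 0.06 with TMM, and the gap between SEC61G and EGFR did not, since a scaling moves both alike.

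The promoters of EGFR, of SEC61G, which parted from EGFR in HCC827ER, and of SUMF2, the neighbour with the highest ratio there, are shown as the 250 bases before the RefSeq start (GRCh38.p14 build), 5′ to 3′ on the gene's strand. Where several starts were listed, as the 2 for EGFR, the outermost was used. The windows of SEC61G and SUMF2 lie inside the gene spans given above, which come from GENCODE and not from RefSeq. Capitals mark exact matches on either strand to the GC box (GGGCGG) and the CCAAT box (CCAAT), and no overlap between them occurs.
EGFR, chr7:55018767-55019016, plus strand: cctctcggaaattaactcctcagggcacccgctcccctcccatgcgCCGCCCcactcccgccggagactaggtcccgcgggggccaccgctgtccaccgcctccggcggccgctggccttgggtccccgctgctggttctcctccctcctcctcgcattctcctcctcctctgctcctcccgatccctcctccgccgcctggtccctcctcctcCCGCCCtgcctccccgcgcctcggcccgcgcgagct
SEC61G, chr7:54759212-54759461, minus strand: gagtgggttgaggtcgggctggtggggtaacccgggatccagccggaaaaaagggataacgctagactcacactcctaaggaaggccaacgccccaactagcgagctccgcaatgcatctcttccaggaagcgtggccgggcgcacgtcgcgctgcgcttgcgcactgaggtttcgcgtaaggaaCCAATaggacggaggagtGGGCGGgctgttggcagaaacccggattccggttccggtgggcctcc
SUMF2, chr7:56064036-56064285, plus strand: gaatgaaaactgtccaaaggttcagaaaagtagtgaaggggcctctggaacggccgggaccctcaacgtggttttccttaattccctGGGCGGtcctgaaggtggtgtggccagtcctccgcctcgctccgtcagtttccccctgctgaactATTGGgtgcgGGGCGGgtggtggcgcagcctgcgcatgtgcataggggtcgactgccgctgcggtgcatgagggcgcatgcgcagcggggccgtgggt

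The EGFR window held 2 GC boxes, no CCAAT box and no TATA box (TATAAA). SEC61G held 1 GC box and 1 CCAAT box, and SUMF2 held 2 GC boxes and 1 CCAAT box, both without a TATA box. Over all 35116 promoters of the table, 42.6% held a GC box, 32.0% a CCAAT box and 10.7% a TATA box in the same 250 bases. Promoters of 8 of the 11 genes were found in the table. Of these, 5 held a GC box, 5 a CCAAT box and none a TATA box, and their GC content was 56% to 79.2%, beside a median of 58% over all promoters. These are letter matches and not measured binding sites.

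In the library labelled PC-9GR, 8 of 10 neighbours were at least 2-fold lower than in PC-9, where 20.9% of all genes were. The median log2 ratio of the neighbours was -1.49 (range -2.50 to -0.38), beside -0.02 over all genes, and EGFR was at -1.81. LANCL2 (-2.21) and ZNF713 (-2.50) had lower ratios than EGFR, CHCHD2 (-1.59), SUMF2 (-1.57), VOPP1 (-1.54) and MRPS17 (-1.44) lay near it, and SEC61G (-1.07) and CCT6A (-1.13) lay above it. NIPSNAP2 (-0.64) and PSPH (-0.38) did not reach 2-fold. Unlike in HCC827GR, the 3 nearest genes (median -1.54) and the farther 7 (median -1.44) overlapped fully.

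In PC-9ER all 10 neighbours were nearer to PC-9 than EGFR, which was 2.54-fold lower. None of the 10 was at least 2-fold lower, where 7.61% of all genes were. Their median log2 ratio was -0.10 (range -0.83 to 0.20), beside 0.03 over all genes. ZNF713 (-0.83), SUMF2 (-0.61) and VOPP1 (-0.55) had the lowest ratios, whereas SEC61G (-0.08), PSPH (-0.0035) and CHCHD2 (0.0052) were level with PC-9. NIPSNAP2 (0.20) and CCT6A (0.17) had the highest. The signs of PSPH and CHCHD2 turned with another scaling, to 0.02 without ribosomal protein genes in the totals and to -0.01 with DESeq2 size factors.

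**Figure D2:**
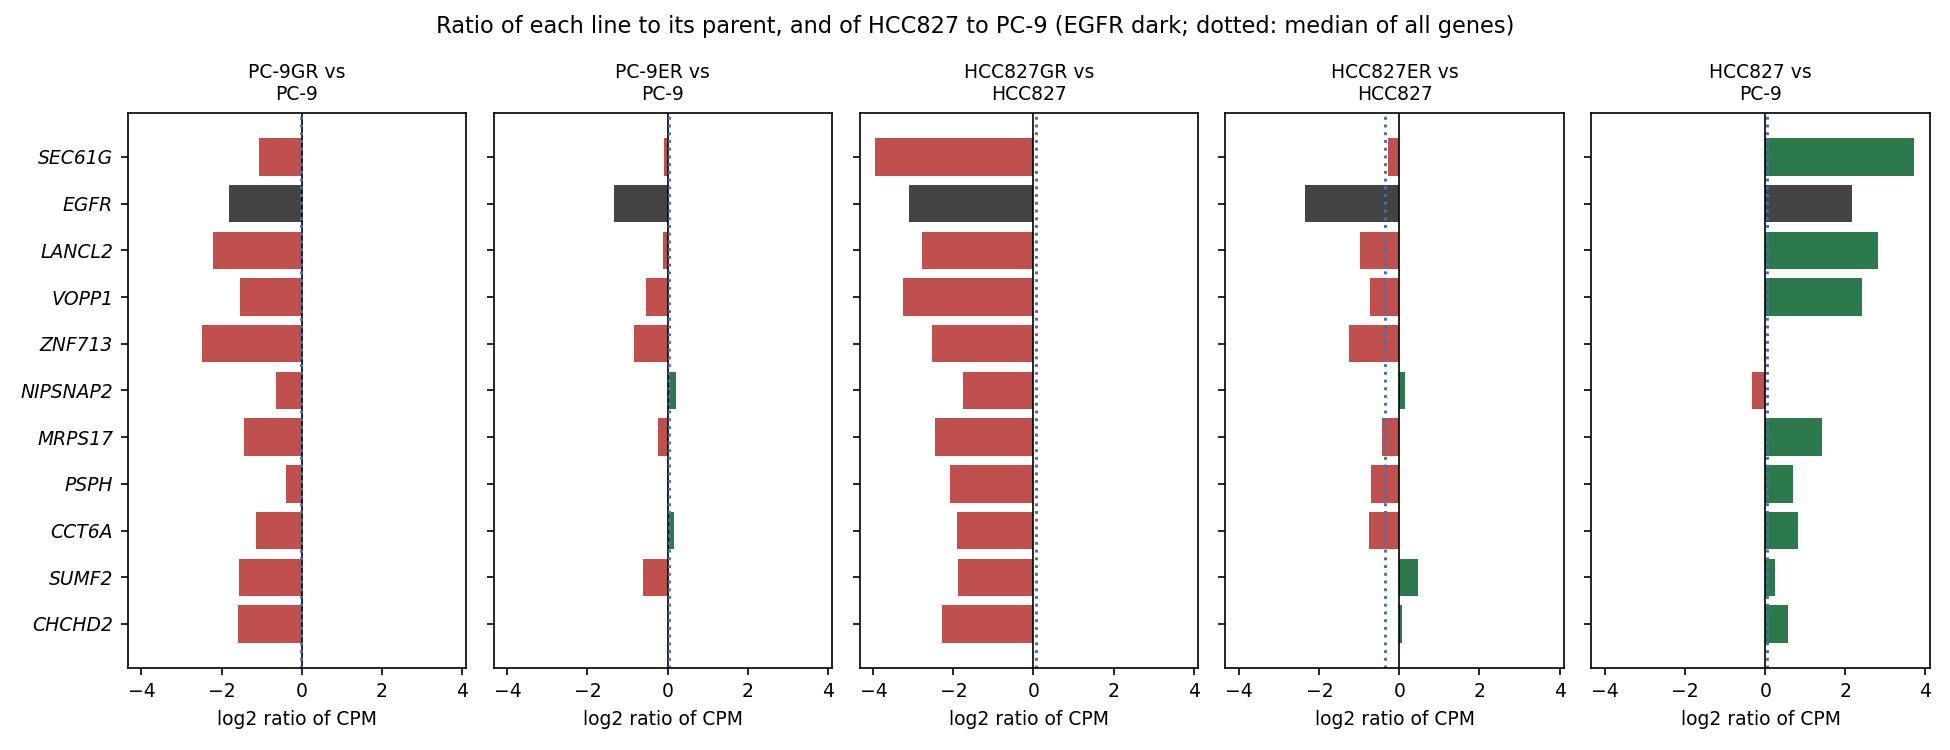
Log2 ratio of CPM for EGFR (dark bar) and its 10 neighbours in chromosomal order, in each derived line against its parent and in HCC827 against PC-9, with the median of all genes as a dotted line. EGFR is below 0 in all 4 derived lines, and the neighbours follow it to a median of -2.38 in HCC827GR and -1.49 in PC-9GR but only to -0.10 in PC-9ER and -0.57 in HCC827ER.

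Over the 4 derived lines, 6 of 10 neighbours (SEC61G, LANCL2, VOPP1, ZNF713, MRPS17 and PSPH) had a ratio below 1 in every pair, beside 13.2% of the 11431 genes with at least 1 CPM in every pair. For PSPH this rests on a log2 ratio of -0.0035 in PC-9ER, and for SEC61G on -0.29 in HCC827ER, which turned with the scaling. EGFR was at least 2-fold lower in all 4 pairs, as were 0.954% of these genes and none of the neighbours. Without the library labelled PC-9GR, the same 6 neighbours were below 1 in the other 3 pairs, beside 17.8% of 11493 genes, and again EGFR but no neighbour was at least 2-fold lower in each, beside 1.31% of genes. Pairs of 1 parent share its library, so they are not independent.

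The GR and ER lines of each parent were also set against each other, a comparison chosen after the values were seen. All 10 neighbours were higher in HCC827ER than in HCC827GR by at least 2-fold, where 10.9% of all genes were (18.1% with TMM scaling). SEC61G was 12.8-fold higher in HCC827ER, VOPP1 5.78-fold, CHCHD2 5.13-fold and SUMF2 5.11-fold, and EGFR only 1.69-fold. All 10 were also higher in PC-9ER than in PC-9GR, where 51.5% of all genes were. Of the 10, 5 were at least 2-fold higher, where 19.4% of all genes were. LANCL2 was 4.28-fold and CHCHD2 3.02-fold higher in PC-9ER, and EGFR 1.38-fold. In both families the ER line thus differed from the GR line more for most neighbours than for EGFR, with PSPH in the PC-9 family (1.30-fold) as the exception. No test can be made of single libraries, and the ER lines come from their own table.

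Tested over lines, no neighbour passed in any comparison. For the 4 resistant lines against the 2 parents, with origin as a blocking factor, edgeR's quasi-likelihood test called 0 of 10 neighbours and 0% of the 13492 genes tested (Benjamini-Hochberg adjusted p below 0.05), with 342 genes and 0 neighbours at an unadjusted p below 0.05. All 10 neighbours had a negative log2 fold change in the fit, with a median of -0.67, beside 0.04 over all genes. The share of all genes with a negative change was not counted. ZNF713 was at -1.52 ± 0.82 (SE), LANCL2 at -1.09 ± 0.76, VOPP1 at -1.08 ± 0.77, SEC61G at -0.67 ± 0.97 and NIPSNAP2 at -0.19 ± 0.64, each with an adjusted p of 0.999. EGFR was at -2.03 ± 0.48 (adjusted p = 0.999 in edgeR, and 0.0373 with DESeq2, where no neighbour passed). The spread in this fit comes from the differences between the GR and ER lines and between the families. Simulated data were drawn with the same spread for every gene, a common value estimated from these libraries. There, 39% of genes changed by 3 on the log2 scale were called. Real genes differ in spread, so this share does not give the power for any neighbour. The neighbours' fitted changes were smaller than 3, and changes of that size could be missed. Without the library labelled PC-9GR, SEC61G was at -0.54 ± 1.01, LANCL2 at -0.85 ± 0.68, VOPP1 at -0.94 ± 0.82, ZNF713 at -1.27 ± 0.69, NIPSNAP2 at -0.06 ± 0.66 and EGFR at -2.01 ± 0.58. The neighbours' median was then -0.56, and again edgeR called 0 of 10.

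Within parents the fits gave 9 of 10 neighbours below 0 in the HCC827 derivatives (median -0.92, beside 0.04 over all genes). In the PC-9 derivatives they gave 10 of 10 (median -0.64, beside 0.07). The share of all genes below 0 was not counted, and each fit averages a GR and an ER line. In each fit 0 neighbours and 0% of all genes were called. At an unadjusted p below 0.05 there were 196 genes for HCC827 and 130 for PC-9, and none of the neighbours in either. The change in HCC827 minus the change in PC-9 was also called for 0% of all genes (119 at the unadjusted level), and it ranged over the neighbours from -0.82 ± 1.20 (PSPH) to 1.02 ± 1.63 (SUMF2). Its median over the neighbours was -0.19, and -0.71 without the library labelled PC-9GR. DESeq2 called 29, 91, 42 and 25 genes in resistant against parental, in PC-9, in HCC827 and in the difference, and no neighbour in any of them. Leaving out the library labelled PC-9GR turned the sign of CCT6A in PC-9 derivatives (0.17 without it, -0.33 with it) and of NIPSNAP2 (0.20 without it, -0.14 with it). Leaving out HCC827GR turned the sign of SEC61G in HCC827 derivatives (0.06 without it, -0.85 with it).

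In both GR lines the medians of genes farther along chromosome 7 lay closer to 0 than that of the genes around EGFR. In HCC827ER this also held beyond 5 Mb when PHKG1 was counted in the window, but by less, down to -0.67 beside -0.70. For the 10 neighbours alone the median there was -0.57, and the bin at -0.67 lay farther from 0. In PC-9ER only some bins had medians closer to 0 than the genes around EGFR. In HCC827GR the genes within 1 Mb of EGFR, EGFR left out, had a median log2 ratio of -2.29 over 11 genes, which are the 10 neighbours and PHKG1. With LOC101060341, which has no position in the annotation used and is placed there by its RefSeq neighbours, the median was -2.26 over 12 genes, and LOC101060341 itself was at -0.32. Genes of 7p more than 20 Mb towards the telomere had a median of -0.52 (140 genes), those 5 to 20 Mb away on that side -0.38 (45 genes), those 5 to 20 Mb away on the centromere and 7q side -0.21 (45 genes) and those over 20 Mb away on 7q -0.05 (360 genes). The short arm as a whole thus had lower ratios than the long arm, and the genes at EGFR had the lowest. In PC-9GR the window stood at -1.49, beside -0.19, -0.07, 0.15 and -0.05 in the same 4 bins. In PC-9ER the window was at -0.10 beside -0.08, 0.18, -0.14 and 0.02, and in HCC827ER at -0.70 beside -0.50, -0.01, -0.67 and -0.52. LOC101060341 was at -1.54 in PC-9GR, -0.67 in PC-9ER and -2.24 in HCC827ER. PHKG1, with 11 counts in HCC827ER, was at -2.05 there, and EGFR at -2.35. Between 1 and 5 Mb only 3 or 4 genes could be compared, all on the telomere side, with medians of -0.25 (PC-9GR), -0.36 (PC-9ER), -0.55 (HCC827GR) and -1.30 (HCC827ER), too few to place an edge.

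**Figure D3:**
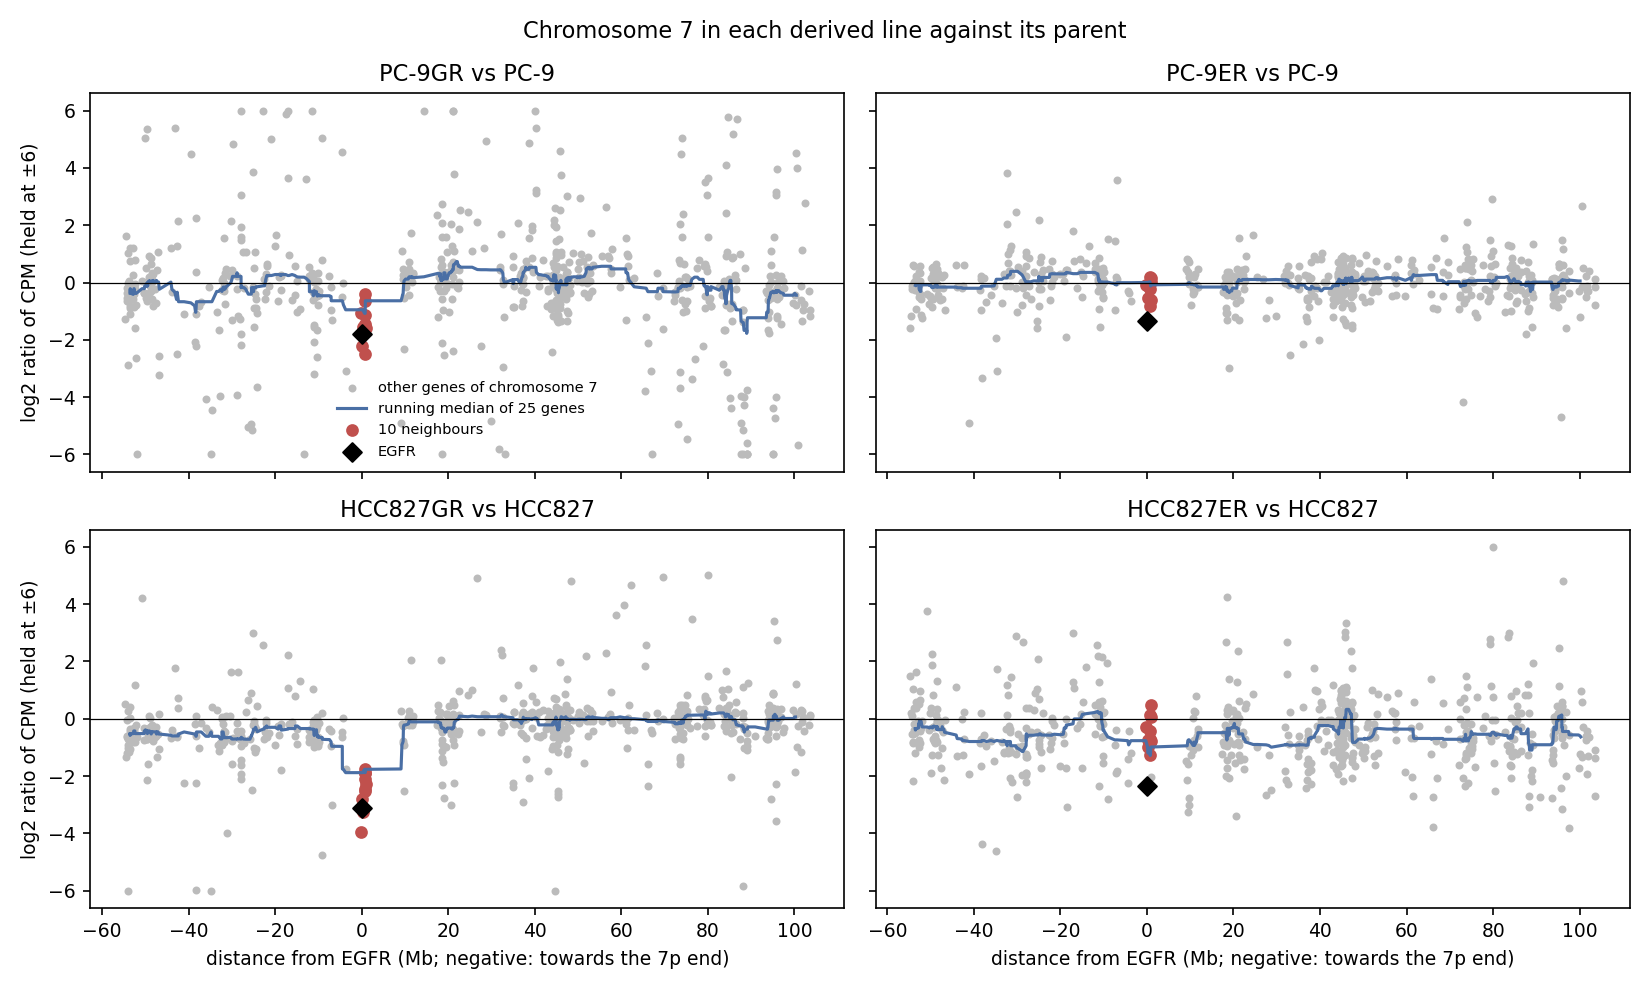
Log2 ratio of CPM for every gene of chromosome 7 with at least 1 CPM in either library, by distance from EGFR in Mb, in each derived line against its parent, with a running median of 25 genes as a line and ratios beyond 6 in either direction drawn at 6. The dip at EGFR in HCC827GR (median -2.29 within 1 Mb) and in PC-9GR (-1.49) is narrower than the chromosome arm, and in PC-9ER and HCC827ER EGFR lies below its own neighbours.

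Among genes placed on chromosome 7 and reaching 1 CPM in some library, the nearest outside the 1 Mb window were COBL and ZNF736. COBL, an actin nucleator, lies 3.7 Mb away on the telomere side. The zinc finger gene ZNF736 lies 9.1 Mb away on the other side. COBL was at 6.11 CPM in PC-9GR and 33.5 CPM in PC-9ER, against 52.3 CPM in PC-9, and at 9.22 CPM in HCC827GR and 13.8 CPM in HCC827ER, against 31.7 CPM in HCC827. ZNF736 was at 0.0561 CPM in PC-9GR and 6.96 CPM in PC-9ER, against 5.03 CPM in PC-9, and at 15.7 CPM in HCC827GR and 4.57 CPM in HCC827ER, against 13.1 CPM in HCC827. COBL was thus below the parent in all 4 derived lines, and ZNF736 in PC-9GR and HCC827ER. Within the window 4 other genes, not members of the set, were listed. PHKG1, a subunit of phosphorylase kinase whose gene overlaps the end of SUMF2 on the other strand, was at 0.534 CPM in HCC827GR and 0.636 CPM in HCC827ER, against 3.03 CPM in HCC827, and had 3 to 9 counts in the PC-9 family. LOC101060341 was at 18.5 CPM in HCC827GR and 4.80 CPM in HCC827ER, against 23.2 CPM in HCC827, and at 5.61 CPM in PC-9GR and 10.4 CPM in PC-9ER, against 16.6 CPM in PC-9. SEPTIN14 and VSTM2A stayed below 1 CPM in every library.

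CCT6A, SEC61G, MRPS17 and PSPH belong to complexes or pathways whose other genes lie elsewhere, and in HCC827GR these partners stayed closer to the parent. The lists were chosen with earlier results of these data known. Of the 7 other chaperonin subunits tested, none was 2-fold lower in HCC827GR (median log2 ratio 0.06, range -0.54 to 0.13), where CCT6A was at -1.90, and none in PC-9GR (median 0.50), where CCT6A was at -1.13. Of 27 other genes of the small mitochondrial ribosomal subunit, none was 2-fold lower in HCC827GR (median 0.14, lowest -0.64) or in PC-9GR (median 0.29, lowest -0.71), where MRPS17 was at -2.47 and -1.44. In HCC827ER and PC-9ER, MRPS17 (-0.43 and -0.24) was also below the medians of its partners (0.13 and 0.41). In HCC827ER, MRPS17 and likewise CCT6A (-0.76), SEC61G (-0.29) and PSPH (-0.70) lay within the ranges of their partners. In PC-9ER, MRPS17 and CCT6A (0.17) lay below all of their partners, whereas SEC61G (-0.08) and PSPH (-0.0035) lay within the ranges of theirs and above the medians (-0.23 and -0.16).

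For SEC61G the 10 partner genes of the translocon had a median of 0.08 in HCC827GR (range -0.85 to 1.61), and SEC61G was at -3.96. Its direct partners in the channel, SEC61A1 (0.11) and SEC61B (-0.33), were near HCC827. The translocating chain-associated protein TRAM1 was at 389 CPM in HCC827GR and 501 CPM in HCC827ER, against 127 CPM in HCC827. In PC-9GR, SEC61G (-1.07) lay within the range of its partners, of which SEC61A1 (-1.20) and SEC63 (-1.27) were also at least 2-fold lower. The 4 other genes of serine and glycine synthesis had a median of -0.12 in HCC827GR (range -0.26 to 0.15), where PSPH was at -2.09. In PC-9GR, PSPH (-0.38) lay within their range of -1.81 (PHGDH) to 1.05 (PSAT1). Paralogs of the neighbours on other chromosomes were not lower in HCC827GR as a group, with 5 of 6 above the parent (median 0.40), LANCL1 at 0.50 and SUMF1 at 0.38 among them.

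**Figure D4:**
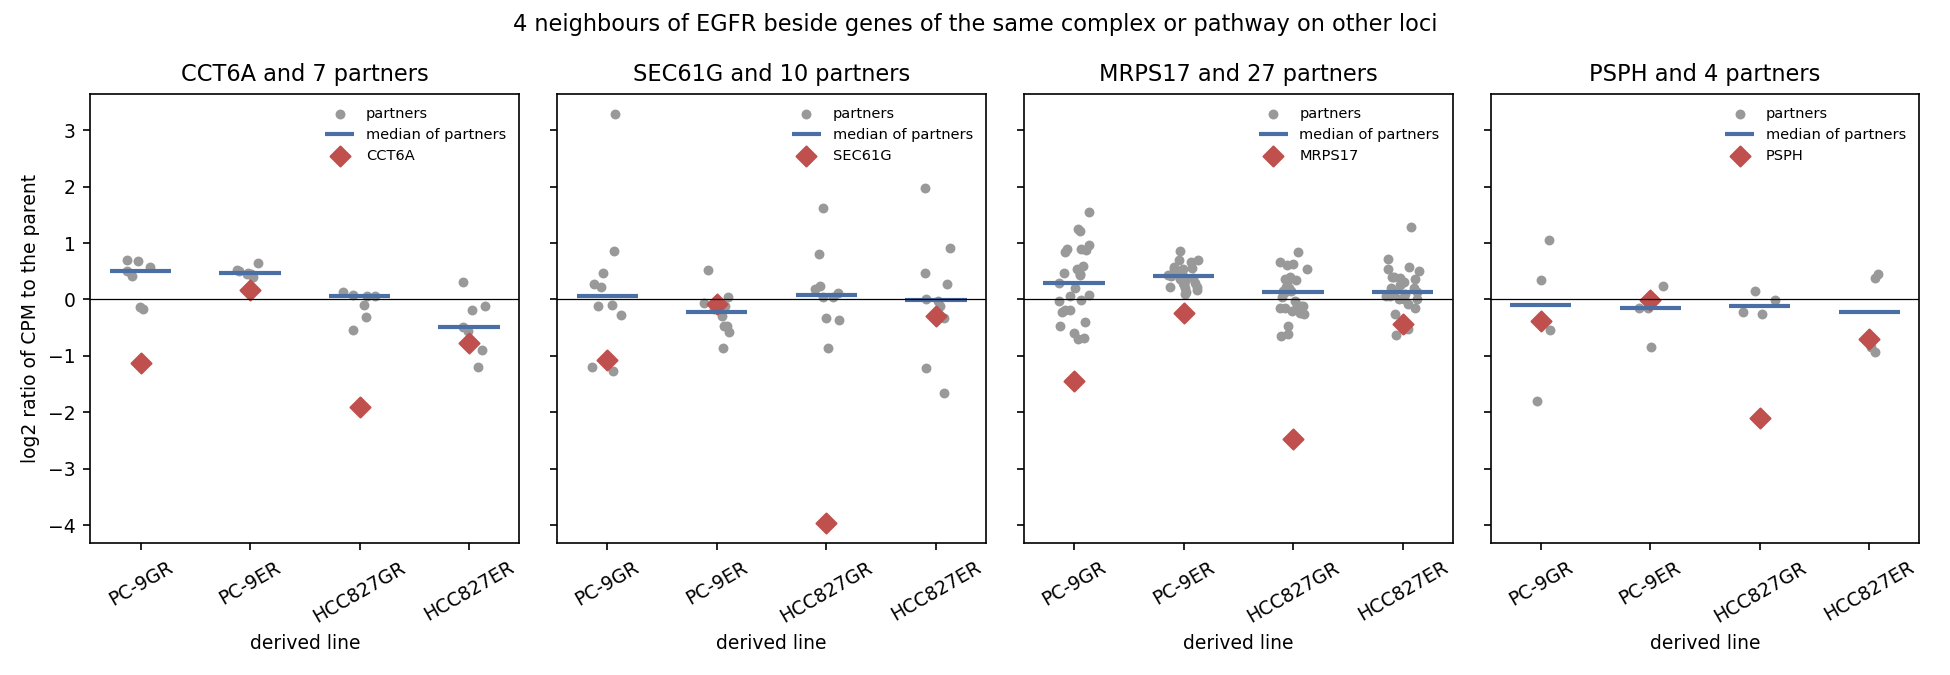
Log2 ratio of CPM to the parent for CCT6A, SEC61G, MRPS17 and PSPH (diamonds) and for the other genes of the same complex or pathway (grey points, with their median as a line) in the 4 derived lines, 1 library per line. In HCC827GR each diamond lies below all of its partners, at -1.90, -3.96, -2.47 and -2.09, while the medians of the partners lie between -0.12 and 0.14.

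Across the 6 libraries the neighbours differed in how closely their log2 CPM tracked EGFR. Pearson's r with EGFR was 0.89 for VOPP1, 0.87 for LANCL2, 0.85 for MRPS17, 0.81 for SEC61G and 0.78 for CCT6A, between 0.64 and 0.70 for ZNF713, SUMF2, CHCHD2 and PSPH, and 0.19 for NIPSNAP2. Of 13779 genes ranked by this r, VOPP1 was number 29, LANCL2 number 47 and NIPSNAP2 number 4590. The genes most like EGFR were RBMX2 (r = 0.97), SYT8 (0.97), TRPV4 (0.96), CRYBB3 (0.96) and PHKG1 (0.96), and of these only PHKG1 lies on chromosome 7. RBMX2 was at 27.9 CPM in PC-9GR and 25.8 CPM in PC-9ER, against 37.1 CPM in PC-9, and at 32.1 CPM in HCC827GR and 35.2 CPM in HCC827ER, against 50.9 CPM in HCC827, whereas the other 4 stayed below 7.5 CPM. These r values are descriptions over 6 libraries of 2 families, and they were not computed without the library labelled PC-9GR, which would leave 5.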

How the data were processed

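RNA of 6 cell lines was sequenced, 1 library per line, from libraries made with a stranded TruSeq Ribo-Zero kit per the labels' protocols. Per the submitters' processing notes, HISAT2 2.0.4, Cuffdiff and GRCh38.p13 were used, and the counting program and its strand setting were not stated. The deposited values are expected counts per gene, estimates of which 13.2% to 14.3% were not whole, and they were rounded. The 2 deposited tables hold 16854 and 16306 genes, and the 16000 in both were used. Gene positions come from GENCODE release 29 (GRCh38), promoters from RefSeq (GRCh38.p14).

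Pairs of single libraries were compared by log2 CPM ratios after adding a prior count of 2, over genes with at least 1 CPM in either library, and 2-fold is a log2 ratio of 1. Ratio intervals are exact 95% binomial intervals and cover counting error only, as reads carry no molecular identifiers. Comparisons over lines used edgeR 4.0.16 in R 4.3.3 (TMM, default expression filter, robust quasi-likelihood fit, Benjamini-Hochberg adjustment at 0.05) with line of origin as a block, and 3 or, within parents, 2 residual degrees of freedom. Their p-values rest on the spread between derived lines and, in the fit over both parents, also on that between families. With 1 library per line, the spread of the parental lines and of repeat cultures was not estimated. DESeq2 1.42.0, other scalings, a prior count of 0.5, other filters and leaving out each library were the alternatives. The edgeR script was tested on simulated data. The 10 members and EGFR were named in every comparison, partner genes by their lists and by largest ratio, and members and lists were chosen with earlier results of these data known.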

Additional observations from a re-analysis of the deposited data

How the results depend on the processing

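Counts of genes called by edgeR over lines depended on the libraries and the tool. DESeq2 called 29 genes in resistant against parental lines, 91 in PC-9, 42 in HCC827 and 25 in the difference between parents, where edgeR called 0, and 342, 130, 196 and 119 genes had an unadjusted p below 0.05 in edgeR. Leaving out 1 library at a time gave 0 in resistant against parental lines, 0 to 999 in PC-9 derivatives, 0 to 159 in HCC827 derivatives and 0 to 506 in the difference. The highest counts came without PC-9ER (999, 159 and 506), which leaves 1 derived line in the PC-9 arm, assumed to vary like the other lines. Without PC-9GR the counts were 2, 159 and 12. No neighbour was called in any of these settings. EGFR passed over both parents with DESeq2 alone, at -2.02.

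In HCC827ER against HCC827 the neighbours' median log2 ratio, -0.57 in CPM, was -0.22 with TMM, -0.19 with DESeq2 size factors, -0.44 without ribosomal protein genes in the totals and -0.43 at a minimum of 10 CPM, which drops ZNF713. The count at least 2-fold lower, 1, became 0 with TMM, with DESeq2 size factors and at 10 CPM. In the other 3 pairs of a derived line and its parent, and in HCC827 against PC-9, the neighbours' medians moved by less than 0.1 and their counts by less than 1.5 times. In HCC827ER against HCC827GR the neighbours' median, 1.97, was 2.36 with TMM and 2.39 with DESeq2 size factors. There the genes at least 2-fold higher numbered 1363 in CPM, 2269 with TMM and 2342 with DESeq2 size factors, and the 10 neighbours were among them each time.

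Fitted signs of single neighbours turned when a library was left out. Over both parents NIPSNAP2 ranged from -0.89 to 0.13 and SUMF2 from -1.41 to 0.026. In PC-9, CCT6A ranged from -1.09 to 0.17, CHCHD2 from -1.54 to 0.0027 and NIPSNAP2 from -0.59 to 0.20. In HCC827, CHCHD2 ranged from -2.32 to 0.43, NIPSNAP2 from -1.80 to 0.49, SEC61G from -4.00 to 0.064 and SUMF2 from -1.92 to 0.82. In the difference, CCT6A ranged from -1.60 to 0.10, CHCHD2 from -1.73 to 1.17, LANCL2 from -1.99 to 0.82, MRPS17 from -1.78 to 0.63, NIPSNAP2 from -1.64 to 0.63, SEC61G from -3.50 to 0.54, SUMF2 from -0.90 to 1.82, VOPP1 from -2.34 to 0.56 and ZNF713 from -1.20 to 0.97. With 1 library per line there were no replicates to pair, and derived lines were matched to their parent by line of origin. Line of origin was a block in the fit over both parents, and without it edgeR again called 0 genes (166 at an unadjusted p below 0.05) and the median of the neighbours was -0.75. The counts over derived lines without PC-9GR and the window with LOC101060341 were chosen after seeing the data. ZNF713, with 18 to 132 counts, is limited by depth.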
